A study of Homo sapiens with 8 samples.

Results

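The enzymes of glycolysis and the pentose phosphate pathway were followed at the level of their RNA in human cells exposed to sodium benzoate (SB). The set was a list of 35 named genes covering glucose uptake, every step from hexokinase to lactate dehydrogenase, the oxidative and non-oxidative pentose phosphate reactions, and the phosphoglucomutases, glycogen synthase and glucose phosphatase that branch from them. All 35 had a row among the 14526 genes of the deposited expression table. The cells were labelled HepG2, an established line from a human liver tumour, and were grown in serum-containing medium. In the SB-treated group 10 mM sodium benzoate was given for 24 h, and the control group carries no treatment in its labels. Each group held 4 libraries of total RNA, described by the study as biological replicates, and no further condition, dose or time was measured. The study asked how gene expression changes when SB raises lysine benzoylation of histones, and the chromatin libraries made for that question were not analysed here.

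Glycolysis splits glucose into pyruvate in the cytosol, yielding ATP and NADH, and lactate dehydrogenase regenerates the NAD+ that the pathway needs. The pentose phosphate pathway branches off at glucose phosphate. Its oxidative arm makes NADPH, and its non-oxidative arm interconverts sugars to supply ribose for nucleotides or to return carbon to glycolysis. Normal hepatocytes use their own isoenzymes for several of these steps, such as the liver pyruvate kinase, whereas proliferating tumour cells mostly use the isoenzymes that other tissues share.

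The values were RPKM, which divides the reads of a gene by its length and by the size of the library, so levels may be compared between genes as well as between libraries. The reads behind the values could be recovered as whole numbers for all 14526 genes, and they summed to between 36990091 and 44878446 per library. Of 24 hepatocyte marker genes, 18 had no row in the table used here, among them ALB, AFP, APOA1, TTR, SERPINA1 and HNF4A. The highest of the 6 that had a row was CPS1, at 6.57 ± 0.319 RPKM in control cells (SD, n = 4). All 6 were higher with SB, with a median log2 fold change of 0.22 (CPS1 0.67, FOXA3 0.75), and their part in the changes of the enzyme genes was not tested. The liver isoenzyme genes PKLR, SLC2A2, FBP1, PCK1, G6PC1 and GYS2 likewise had no row, and liver glycogen phosphorylase (PYGL) stood at 209 ± 5.19 RPKM. The defining hepatocyte genes are therefore missing or low in these libraries, and the line is referred to here by its label. Control replicate 1 stood apart from the other controls in a way that followed base composition, since the GC content of a gene accounted for 57.5% of the variance of that difference over 12263 genes. The glycolysis and pentose phosphate genes were GC-richer than most (median 53.6% against 48.5% over all genes), and control replicate 1 was the lowest control for 25 of the 35, against 41.3% of all genes. Calls and counts that change without that library are also given without it.

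In SB-treated cells, 25 of the 35 genes were lower and 6 were higher than in control cells, and 4 did not pass the test (limma on log2(RPKM + 1), adjusted p below 0.05 over all 14526 genes). The background was broad, with 32.6% of all genes called lower and 33.0% called higher. Falls were found at nearly every step from glucose uptake to lactate, and the largest was that of LDHA, to 54.4% of its control level. The 6 genes that rose were ENO2, ENO3, PFKFB2, PFKP, PGLS and PGD, each by less than 1.5-fold in mean RPKM. The median log2 fold change of the 35 genes was -0.32, beside 0.00 over all genes. The groups did not overlap for 23 of the genes in the lower direction, where 30.5% of all genes did not overlap, and for 7 in the higher direction, where the share was 31.0%. A log2 fold change of at least 0.5 downward was reached by 9 of the 35 genes, against 5.45% of all genes, and none of the 35 reached it upward. Without control replicate 1, 27 genes were called lower and 7 higher (37.9% and 37.6% of all genes), and PFKFB4 alone was not called. As these are bulk libraries, fewer cells with a transcript and less of it per cell cannot be told apart.

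**Figure D1:**
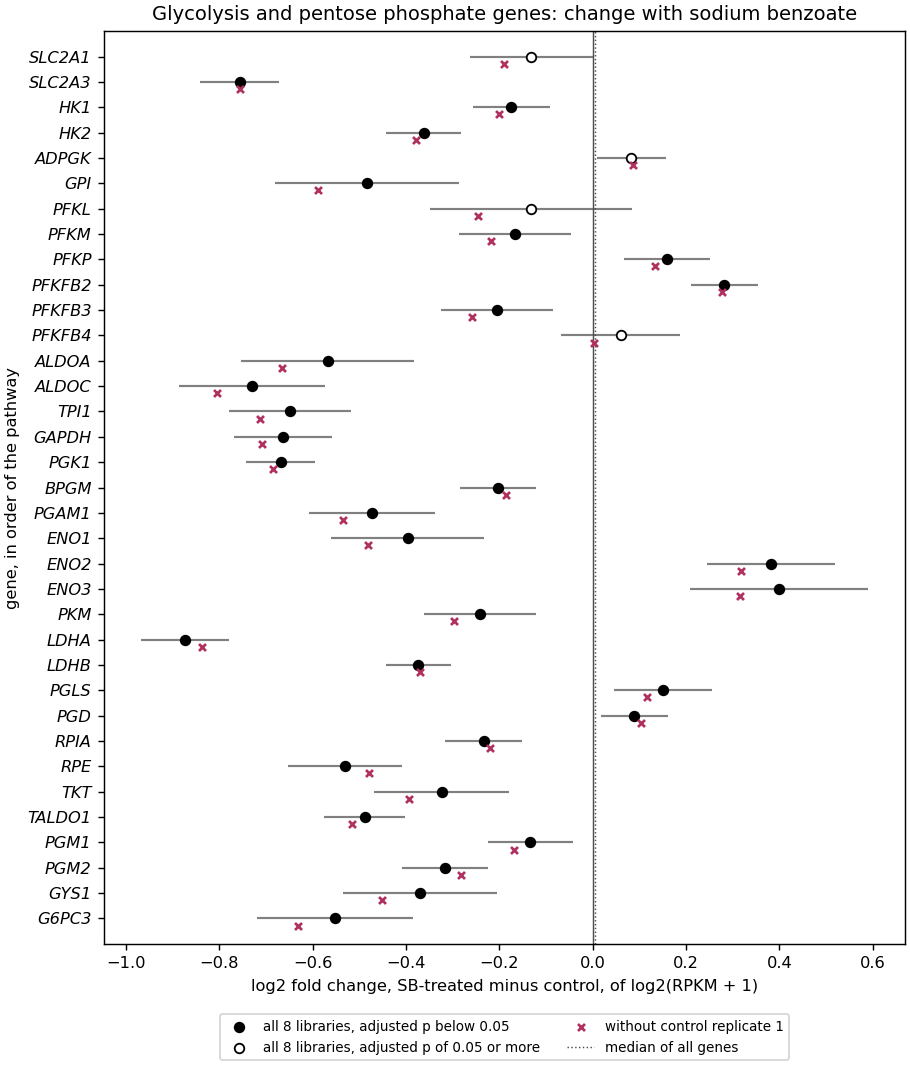
Log2 fold change (x axis, SB-treated minus control, of log2(RPKM + 1)) of the 35 genes in pathway order (y axis), from the fit to all 8 libraries with its 95% confidence interval (line) and from the fit without control replicate 1 (cross). Filled points, 31 in all, passed an adjusted p of 0.05, and 25 of these lie to the left of 0.

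These genes are abundant, and abundance moved with the result. Together they took 1.31% ± 0.0888 of the reads in control libraries and 1.02% ± 0.00992 in SB-treated libraries (SD, n = 4), and the ranges, 1.17% to 1.36% and 1.01% to 1.03%, did not overlap. All 11 of the genes with a mean above 100 RPKM were lower, with a median log2 fold change of -0.49. Of all 515 genes above that level, 77.5% were lower and 6.41% were higher, with a median of -0.30, so the direction of the abundant enzymes was that of most abundant genes. Of the 24 genes at or below 100 RPKM, 14 were lower and 6 were higher, with a median of -0.17. Among the 14011 genes at or below that level, 31.0% were lower and 33.9% were higher, with a median of 0.01. The part of abundance in the falls was not tested.

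**Figure D2:**
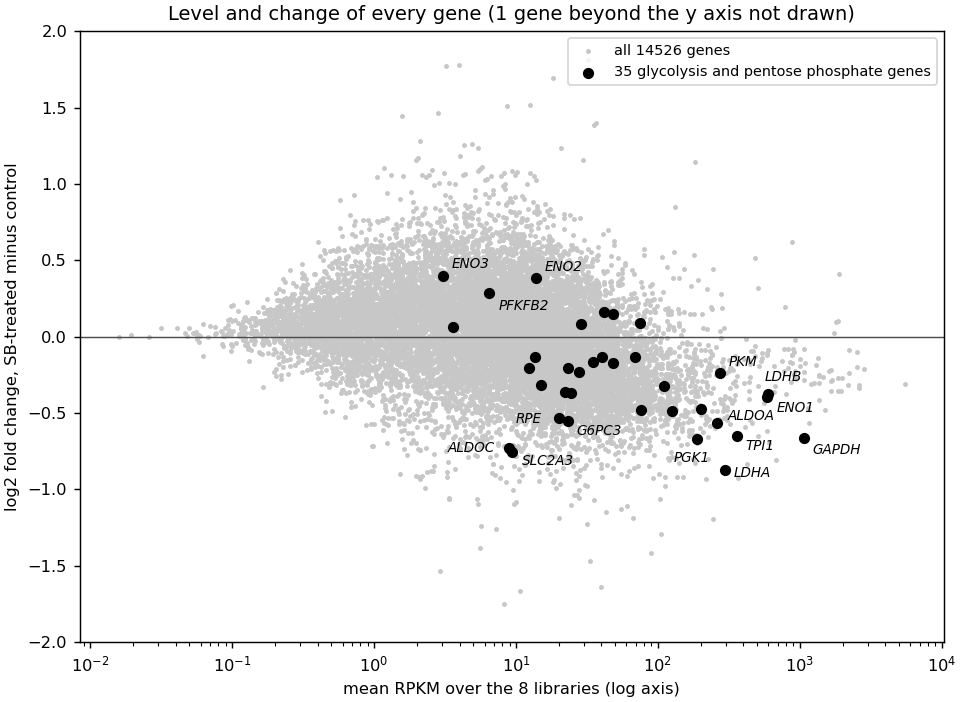
Mean RPKM over the 8 libraries (x axis, log scale) and log2 fold change with SB (y axis) of each of 14526 genes (grey) and of the 35 glycolysis and pentose phosphate genes (black). The 11 black points above 100 RPKM all lie below 0, as do most grey points there, and LDHA, GAPDH, TPI1 and PGK1 lie among the lower points at their level.

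The scaling between libraries also bears on the small changes. The library sizes behind the deposited RPKM carried a normalization factor between 0.957 and 0.969 in controls and between 1.03 and 1.04 in SB-treated libraries. With libraries scaled to equal RPKM totals instead, the median log2 fold change of all genes moved to 0.14 and that of the 35 genes to -0.14, a distance of -0.28, against -0.32 in the deposited scaling. SLC2A1, HK1, PFKL, PFKM and PGM1, whose falls were small, turned to values between 0.0089 and 0.0518 under equal RPKM totals, and none of these 5 passed the test there. PFKFB3 (-0.03), BPGM (-0.03), PKM (-0.05), RPIA (-0.05) and TKT (-0.14) stayed below 0 under equal RPKM totals but lost their calls.

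Glucose enters through the GLUT transporters, and the genes of GLUT1 and GLUT3 moved apart. SLC2A3, encoding the high-affinity transporter GLUT3, stood at 12, 11.7, 12.1 and 12 RPKM in control replicates 1 to 4 and at 6.26, 6.70, 6.64 and 7.04 RPKM in SB-treated replicates 1 to 4. Every SB-treated library was well below every control. The fall was to 55.8% of control (log2 fold change -0.76, SE 0.04, adjusted p = 5.19e-07). SLC2A1, encoding the widely expressed transporter GLUT1, read 12.5, 15.2, 14.2 and 15.3 RPKM in controls and 12.6, 13.0, 13.3 and 12.7 RPKM with SB. Control replicate 1 lay below every treated library and the other controls above them, and the gene did not pass with all libraries (log2 fold change -0.13, adjusted p = 0.0726) but did without it (-0.19, adjusted p = 0.000692). The SLC2A3 to SLC2A1 ratio, which does not depend on library scaling, was 0.841 ± 0.0843 in controls and 0.516 ± 0.0264 with SB. The ratio ranges did not overlap, and the difference was -0.70 on the log2 scale (exact permutation test, two-sided, p = 0.0286, the smallest 4 against 4 can give, adjusted p = 0.0393 over the 11 ratios). Of these 11 ratios between isoenzymes, 8 did not overlap between groups. Among single genes, 31.0% did not overlap in the higher direction and 30.5% in the lower, and no such share was taken over ratios of other gene pairs.

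Hexokinases trap glucose by phosphorylating it. HK1, the housekeeping form, read 48.4, 51.4, 53.3 and 51.7 RPKM in controls and 45.1, 45.7, 45.2 and 45.1 RPKM with SB. HK2, the inducible form that many tumours carry, read 24.2, 26.0, 24.5 and 25.7 RPKM in controls and 18.9, 19.7, 19.3 and 19.2 RPKM with SB. The treated libraries were below all controls for both. HK2 fell by 23.1% and HK1 by 11.6% in mean RPKM, with log2 fold changes of -0.36 (SE 0.04, adjusted p = 1.97e-05) and -0.17 (SE 0.04, adjusted p = 0.00217). The HK2 to HK1 ratio went from 0.490 ± 0.0208 to 0.426 ± 0.00564 without overlap (exact permutation p = 0.0286, adjusted p = 0.0393), and gave an exact p = 0.0571, still without overlap, on leaving out any 1 SB-treated library. ADPGK, which phosphorylates glucose with ADP, had 28.1 ± 0.575 RPKM in controls and 29.8 ± 0.658 RPKM with SB. Its groups did not overlap, but it lay just outside the threshold (log2 fold change 0.08, adjusted p = 0.0501) and passed without control replicate 1 (adjusted p = 0.0218).

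In upper glycolysis, the isomerase, aldolase and triose phosphate isomerase genes fell, and the phosphofructokinase genes differed among themselves. GPI, which converts glucose phosphate to fructose phosphate, had 88.5 ± 12 RPKM in controls and 62.5 ± 1.10 RPKM with SB, a fall of 29.4%. Its SD in controls came mostly from replicate 1, at 70.6 RPKM against 93.3 to 96.2 RPKM in the others. The fall was larger without that library, with a log2 fold change of -0.59 in place of -0.48.

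Phosphofructokinase commits sugar to glycolysis, and its liver, muscle and platelet forms combine into tetramers. PFKL, the liver form and the most abundant of the 3, read 56.5, 78.9, 77.1 and 76.4 RPKM in controls and 62.1, 67.6, 66.0 and 65.4 RPKM with SB. Control replicate 1 was below every treated library and the other controls were above them. Accordingly the gene was not called with all libraries (log2 fold change -0.13, 95% confidence interval -0.35 to 0.08, adjusted p = 0.248), and was called lower without that library (-0.25, adjusted p = 0.000106). PFKM, the muscle form, read 32.8, 39.0, 36.1 and 38.9 RPKM in controls and 32.9, 32.5, 32.2 and 32.5 RPKM with SB. Control replicate 1 again lay within the treated range, and the call (log2 fold change -0.17, adjusted p = 0.0204) was lost without control replicate 2, control replicate 4 or SB-treated replicate 3. PFKP, the platelet form, read 37.0, 41.4, 38.1 and 39.8 RPKM in controls and 43.5, 45.1, 43.2 and 43.1 RPKM with SB. All treated libraries exceeded all controls, and the rise was 11.8% (log2 fold change 0.16, SE 0.04, adjusted p = 0.00718). As a share of the summed RPKM of the 3 genes, PFKP went from 26.5% ± 1.88 to 30.9% ± 0.417 without overlap, although the PFKP to PFKL ratio itself overlapped between groups (exact permutation p = 0.0571, adjusted p = 0.0629). Without control replicate 1 it did not overlap (log2 difference 0.39, exact permutation p = 0.0286). The PFKM to PFKL ratio was 0.513 ± 0.0486 in controls and 0.499 ± 0.0217 with SB, and no difference was detected (exact permutation p = 0.714). The summed level of the family, 148 ± 14.8 RPKM in controls and 142 ± 2.82 RPKM with SB, overlapped between groups.

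The PFKFB genes encode bifunctional enzymes that make and remove the sugar bisphosphate activating phosphofructokinase. PFKFB2 read 5.66, 5.93, 5.59 and 5.79 RPKM in controls and 7.26, 7.13, 7.30 and 7.10 RPKM with SB. PFKFB3, the form with the strongest kinase activity, read 22.4, 26.3, 25.1 and 26.7 RPKM in controls and 21.4, 22.3, 21.4 and 21.4 RPKM with SB. The first rose in every treated library and the second fell, narrowly below control replicate 1. Their log2 fold changes were 0.28 (SE 0.03, adjusted p = 4.54e-05) and -0.21 (SE 0.05, adjusted p = 0.00711), and 0.17 and -0.32 after the correction for GC content and length. PFKFB4 read 3.01, 3.69, 3.74 and 3.64 RPKM in controls and 3.73, 3.87, 3.47 and 3.74 RPKM with SB. Its groups overlapped, and it was not called with or without control replicate 1 (log2 fold changes 0.06 and 0.00, adjusted p = 0.374 and 0.925). The PFKFB3 to PFKFB2 ratio fell from 4.38 ± 0.288 to 3.0 ± 0.0858 (exact permutation p = 0.0286, adjusted p = 0.0393), while the summed RPKM of the 3 genes overlapped between groups (34.4 ± 2.35 and 32.5 ± 0.503). The PFKFB2 gene overlaps YOD1 on the opposite strand, and YOD1 also rose (14.6 ± 1.32 to 18.6 ± 0.177 RPKM). Whether strand was used in counting is not given in the sources used here, so the reads of such partners cannot be told apart with certainty.

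Aldolase splits the sugar bisphosphate into the trioses that TPI1 interconverts. ALDOA, the ubiquitous aldolase, read 253, 328, 333 and 333 RPKM in controls and 207, 214, 207 and 207 RPKM with SB. ALDOC, the form known best from brain, read 9.51, 11.4, 12.1 and 12.3 RPKM in controls and 6.51, 6.46, 6.14 and 6.51 RPKM with SB. TPI1 read 383, 449, 465 and 456 RPKM in controls and 277, 280, 276 and 279 RPKM with SB. For all 3 genes control replicate 1 was the lowest control, and the treated libraries lay below it and close together. The log2 fold changes were -0.57 for ALDOA (adjusted p = 0.000224), -0.73 for ALDOC (adjusted p = 1.57e-05) and -0.65 for TPI1 (adjusted p = 1.06e-05). The ALDOC to ALDOA ratio fell from 0.0364 ± 0.00126 to 0.0307 ± 0.000897 without overlap, but after each library was corrected for GC content and gene length the difference turned from -0.25 to 0.0173 on the log2 scale.

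**Figure D3:**
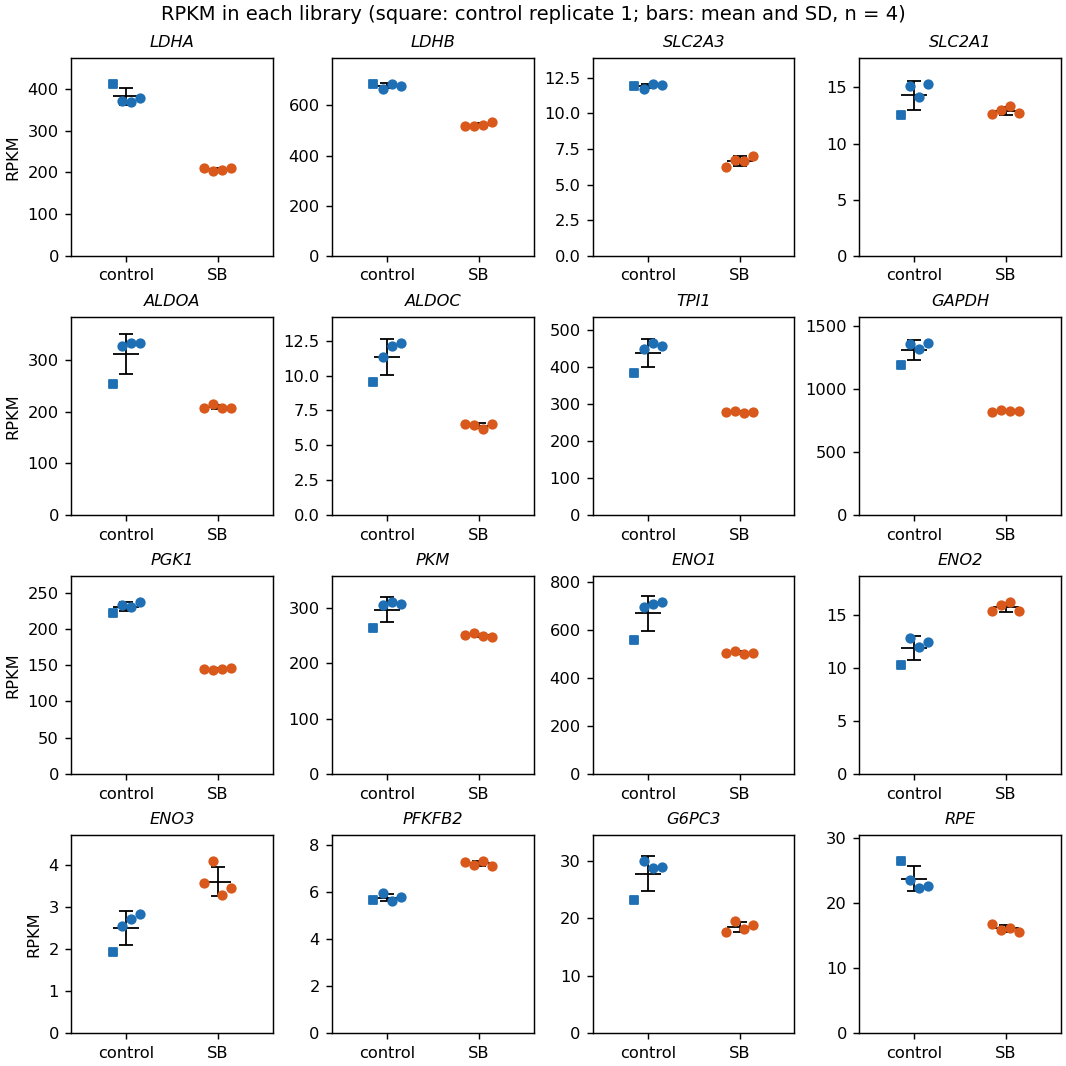
RPKM (y axis, from 0) in each of the 4 control and 4 SB-treated libraries for 16 genes, with the mean and SD of each group (bars) and control replicate 1 drawn as a square. Treated libraries lie below all controls in 12 of the 16 panels and above them for ENO2, ENO3 and PFKFB2, and SLC2A1 is the panel in which the groups overlap.

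In lower glycolysis, where ATP and NADH are gained, at least 1 gene fell at every step, and the enolase genes moved in opposite directions. GAPDH, the NADH-yielding dehydrogenase and a common reference gene for expression assays, was the most abundant of the 35 genes. It read 1189, 1359, 1315 and 1363 RPKM in controls and 815, 830, 821 and 825 RPKM with SB. The highest treated library was far below the lowest control, a fall of 37.0% (log2 fold change -0.66, SE 0.05, adjusted p = 2.62e-06). The annotation names 65 pseudogenes after GAPDH, so short reads may be divided between copies, and its level is uncertain to that extent.

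PGK1, which makes the first ATP of the pathway, read 222, 233, 230 and 237 RPKM in controls and 144, 143, 145 and 146 RPKM with SB. The fall to 62.7% of control was uniform over the treated libraries (log2 fold change -0.67, SE 0.03, adjusted p = 4.88e-07), and hardly changed without control replicate 1 (-0.69). BPGM, which makes the bisphosphoglycerate of red cells, went from 13.3 ± 0.350 to 11.4 ± 0.362 RPKM. PGAM1, the phosphoglycerate mutase, went from 236 ± 20.3 to 169 ± 4.01 RPKM. Both groups of values were apart, with log2 fold changes of -0.20 (adjusted p = 0.000778) and -0.47 (adjusted p = 9.32e-05). BPGM lost its call under the correction for GC content and length (log2 fold change -0.0342).

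Enolase forms phosphoenolpyruvate, and its genes gave the largest differences among the 11 ratios. ENO1, the ubiquitous form, read 559, 695, 707 and 717 RPKM in controls and 503, 513, 501 and 506 RPKM with SB. ENO2, known as neuron-specific enolase, read 10.3, 12.8, 12 and 12.5 RPKM in controls and 15.4, 16.0, 16.3 and 15.4 RPKM with SB. ENO3, the muscle form, read 1.92, 2.53, 2.69 and 2.82 RPKM in controls and 3.56, 4.08, 3.28 and 3.44 RPKM with SB. ENO1 was lower in every treated library than in any control, and ENO2 and ENO3 were higher. The log2 fold changes were -0.40 for ENO1 (SE 0.07, adjusted p = 0.000982), 0.38 for ENO2 (SE 0.06, adjusted p = 0.000414) and 0.40 for ENO3 (SE 0.09, adjusted p = 0.00239). The ENO2 to ENO1 ratio went from 0.0178 ± 0.000717 to 0.0312 ± 0.000878 and the ENO3 to ENO1 ratio from 0.00371 ± 0.000215 to 0.00709 ± 0.000617, differences of 0.81 and 0.94 on the log2 scale (exact permutation p = 0.0286 and adjusted p = 0.0393 for each). After the correction for GC content and length the differences were 0.85 and 0.93. ENO1 nonetheless kept 96.3% ± 0.0841 of the summed enolase RPKM with SB, against 97.9% ± 0.0541 in controls, and the sum fell from 684 ± 75.4 to 525 ± 5.58 RPKM. ENO3 rested on a mean of 150 reads per control library and overlaps PFN1 on the opposite strand, a gene at 306 ± 26.3 RPKM in controls that fell to 201 ± 9.57 RPKM, the reverse of the direction of ENO3.

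PKM, the pyruvate kinase gene whose M2 splice form many tumours use, read 263, 305, 311 and 308 RPKM in controls and 250, 254, 249 and 248 RPKM with SB. All treated libraries were lower, by a smaller margin than for the neighbouring steps (log2 fold change -0.24, SE 0.05, adjusted p = 0.00304). The gene-level values do not separate its splice forms.

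Lactate dehydrogenase closes fermentation. LDHA, whose subunit predominates in glycolytic tissues, read 412, 371, 368 and 378 RPKM in controls and 210, 204, 206 and 211 RPKM with SB. LDHB, whose subunit predominates in heart, read 684, 664, 686 and 677 RPKM in controls and 519, 518, 520 and 533 RPKM with SB. Both genes fell in every treated library, and for LDHA control replicate 1 was the highest control rather than the lowest. The LDHA fall of 45.6% (log2 fold change -0.87, SE 0.04, adjusted p = 4.39e-07) ranked 75th among the 14526 genes ordered from the largest fall, and that of LDHB was 22.9% (log2 fold change -0.37, SE 0.03, adjusted p = 6.56e-06). The LDHA to LDHB ratio went from 0.564 ± 0.0275 to 0.398 ± 0.00497, a difference of -0.50 on the log2 scale (exact permutation p = 0.0286, adjusted p = 0.0393) and of -0.57 after the correction for GC content and length. The same correction reduced the fall of LDHB to a log2 fold change of -0.15, which still passed. LDHA thus gave 36.0% ± 1.11 of the summed RPKM of the pair in controls and 28.5% ± 0.254 with SB.

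**Figure D4:**
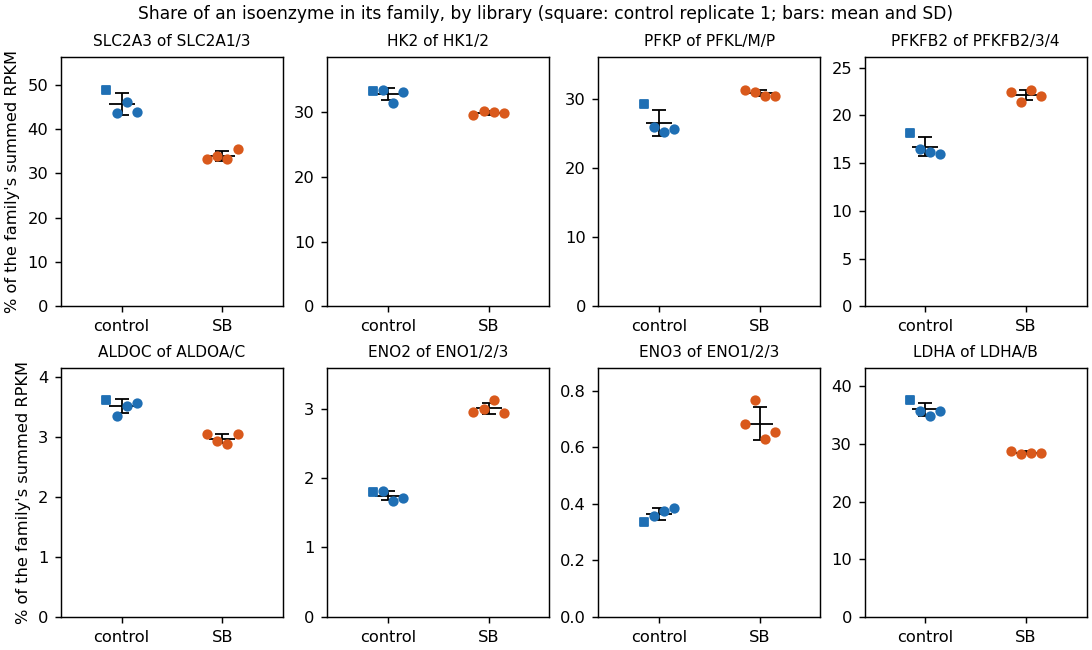
Share of an isoenzyme in the summed RPKM of its family (y axis, in %, from 0) in each control and SB-treated library, with mean and SD (bars) and control replicate 1 as a square. The shares of SLC2A3, HK2, ALDOC and LDHA lie lower and those of PFKP, PFKFB2, ENO2 and ENO3 higher in every treated library, and the lower share of ALDOC corresponds to the ratio that turned under the correction for GC content and length.

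The promoters of these genes were searched for ACGTG, a core shared by the sites of hypoxia-inducible factors and by the MYC E-box CACGTG, because both factors are classic regulators of glycolytic genes. Promoters ran from 250 bases before to 50 bases after a gene start in RefSeq (GRCh38.p14, a patch release of the hg38 build behind the values), and 33 of the 35 genes had 59 promoters there. ACGTG stood on either strand in 39.0% of these 59 promoters, in 25.0% of the 15705 promoters of genes in the table and in 21.4% of all 35116 promoters. The E-box CACGTG, which reads ACGTG on both strands and is counted within it, stood in 16.9%, 9.16% and 7.26%, respectively. The related GCGTG stood in 40.7% of the promoters of these genes, below the 48.1% for genes in the table and above the 36.5% of all promoters. Several of the 59 are alternative starts of the same gene and share sequence, so they are no independent sample. The promoters printed here are those of LDHA, PGK1, GAPDH and ALDOC, which were among the largest falls, and of ENO1 and ENO2, the isoenzyme genes that moved in opposite directions. They are written in lower case, 5′ to 3′ on the strand of the gene, with ACGTG on either strand in capitals.
LDHA (chr11:18394313-18394612, plus strand): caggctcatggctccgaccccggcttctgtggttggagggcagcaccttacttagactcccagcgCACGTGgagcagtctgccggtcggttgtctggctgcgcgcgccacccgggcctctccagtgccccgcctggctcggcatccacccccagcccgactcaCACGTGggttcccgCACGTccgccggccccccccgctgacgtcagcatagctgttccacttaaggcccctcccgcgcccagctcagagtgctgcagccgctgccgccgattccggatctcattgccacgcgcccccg
PGK1 (chrX:78103998-78104297, plus strand): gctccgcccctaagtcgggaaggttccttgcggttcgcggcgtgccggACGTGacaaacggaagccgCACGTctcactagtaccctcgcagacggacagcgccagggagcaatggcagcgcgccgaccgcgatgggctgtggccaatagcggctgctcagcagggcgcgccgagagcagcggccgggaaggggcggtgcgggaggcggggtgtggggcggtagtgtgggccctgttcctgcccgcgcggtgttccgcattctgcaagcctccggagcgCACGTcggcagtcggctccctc
GAPDH (chr12:6535014-6535313, plus strand): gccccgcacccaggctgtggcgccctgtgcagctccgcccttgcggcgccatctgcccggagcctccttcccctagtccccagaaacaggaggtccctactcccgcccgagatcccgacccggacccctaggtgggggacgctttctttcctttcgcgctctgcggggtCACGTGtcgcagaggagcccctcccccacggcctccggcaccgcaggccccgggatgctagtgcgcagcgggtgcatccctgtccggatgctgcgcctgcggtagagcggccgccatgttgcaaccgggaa
ALDOC (chr17:28576846-28577145, minus strand): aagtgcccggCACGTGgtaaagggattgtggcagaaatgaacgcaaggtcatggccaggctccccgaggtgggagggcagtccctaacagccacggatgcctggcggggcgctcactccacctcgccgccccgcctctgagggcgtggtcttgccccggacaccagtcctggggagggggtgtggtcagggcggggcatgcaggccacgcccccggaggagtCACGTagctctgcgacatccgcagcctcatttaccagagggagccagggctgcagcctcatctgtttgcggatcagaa
ENO1 (chr1:8878637-8878936, minus strand): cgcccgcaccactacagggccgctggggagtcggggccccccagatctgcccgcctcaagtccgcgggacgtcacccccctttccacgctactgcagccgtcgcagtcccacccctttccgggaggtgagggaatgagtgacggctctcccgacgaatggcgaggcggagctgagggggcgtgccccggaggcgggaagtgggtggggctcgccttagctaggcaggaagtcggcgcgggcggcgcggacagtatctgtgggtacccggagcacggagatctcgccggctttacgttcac
ENO2 (chr12:6914330-6914629, plus strand): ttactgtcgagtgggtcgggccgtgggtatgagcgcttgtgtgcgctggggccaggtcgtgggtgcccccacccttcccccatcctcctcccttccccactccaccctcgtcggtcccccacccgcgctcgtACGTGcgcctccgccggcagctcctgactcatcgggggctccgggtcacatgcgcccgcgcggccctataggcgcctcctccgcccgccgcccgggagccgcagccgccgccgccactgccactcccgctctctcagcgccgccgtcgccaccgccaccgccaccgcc

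The LDHA promoter printed held ACGTG 5 times over both strands, including 2 CACGTG, and that of its alternative start (chr11:18396101-18396400) held it 0 times. Those of PGK1 and ALDOC held it 3 times. GAPDH held it 2 times, as 1 CACGTG, ENO2 held it 1 time, and ENO1 did not hold it in this window. By gene, 17 of the 33 had ACGTG in at least 1 promoter, of which 14 were lower and 3 were higher with SB. Of the 16 without it, 10 were lower and 2 were higher. Over all genes, 32.6% were lower and 33.0% were higher. Those shares were not taken separately for genes with and without ACGTG, and a gene with several promoters had more chances of a match. Whether the motif had a part in the changes was not tested. A match is a run of letters and not a bound site.

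In the oxidative arm of the pentose phosphate pathway, both of the listed genes were slightly higher with SB. PGLS, the lactonase, had 45.7 ± 2.18 RPKM in controls and 50.8 ± 2.27 RPKM with SB. PGD, which makes the later NADPH and releases carbon dioxide, had 72.0 ± 1.78 RPKM in controls and 76.6 ± 0.420 RPKM with SB. Their groups did not overlap, but the rises were small (log2 fold changes 0.15 and 0.09, adjusted p = 0.0178 and 0.0325). The PGD call was lost on leaving out any library other than control replicate 1, and the PGLS call without SB-treated replicate 2 or 3.

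All 4 genes of the non-oxidative arm fell in the deposited scaling, and RPE and TALDO1 also did so under equal RPKM totals, where TKT and RPIA did not pass. RPE, the ribulose phosphate epimerase, read 26.5, 23.6, 22.3 and 22.6 RPKM in controls and 16.8, 15.8, 16.2 and 15.6 RPKM with SB. TALDO1, the transaldolase, read 139, 151, 151 and 149 RPKM in controls and 105, 108, 104 and 102 RPKM with SB. The groups were well apart for both, with log2 fold changes of -0.53 (SE 0.05, adjusted p = 2.46e-05) and -0.49 (SE 0.04, adjusted p = 5e-06). TKT, the transketolase, went from 122 ± 11.4 to 97.0 ± 2.66 RPKM, and RPIA, the ribose phosphate isomerase, from 30.1 ± 1.04 to 25.5 ± 0.565 RPKM. Both fell without overlap (log2 fold changes -0.32 and -0.23, adjusted p = 0.00156 and 0.000355). After the correction for GC content and length, RPIA stood at -0.0785 and TALDO1 at -0.32, and both were still called. RPE has 6 named pseudogenes and overlaps KANSL1L on the opposite strand, which went from 3.67 ± 0.469 to 4.00 ± 0.132 RPKM and was not called.

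At the branch to glycogen and free glucose, all 4 genes were lower. PGM1, the main phosphoglucomutase, read 39.2, 43.5, 42.9 and 43.3 RPKM in controls and 38.1, 38.4, 37.7 and 39.4 RPKM with SB. PGM2, which also acts on pentose phosphates, read 18.2, 16.1, 16.4 and 16.9 RPKM in controls and 13.3, 13.2, 13.5 and 13.3 RPKM with SB. PGM1 overlapped through control replicate 1 alone, and PGM2 was clearly apart, with log2 fold changes of -0.13 (adjusted p = 0.0166) and -0.32 (adjusted p = 0.000108). Their ratio, PGM2 to PGM1, went from 0.401 ± 0.0423 to 0.347 ± 0.00892 (exact permutation p = 0.0286, adjusted p = 0.0393), but overlapped between groups after the correction for GC content and length (p = 0.0571), and it gave the same p, without overlap, on leaving out any 1 SB-treated library. G6PC3, the ubiquitous glucose phosphatase, read 23.2, 29.9, 28.8 and 28.8 RPKM in controls and 17.6, 19.5, 18.0 and 18.8 RPKM with SB. GYS1, the muscle-type glycogen synthase, went from 27.5 ± 3.07 to 21.0 ± 0.731 RPKM. Neither overlapped, with log2 fold changes of -0.55 (SE 0.07, adjusted p = 0.000138) and -0.37 (SE 0.07, adjusted p = 0.0016). HDAC5, which lies against G6PC3 on the opposite strand, rose from 14.6 ± 1.59 to 18.6 ± 0.644 RPKM.

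**Figure D5:**
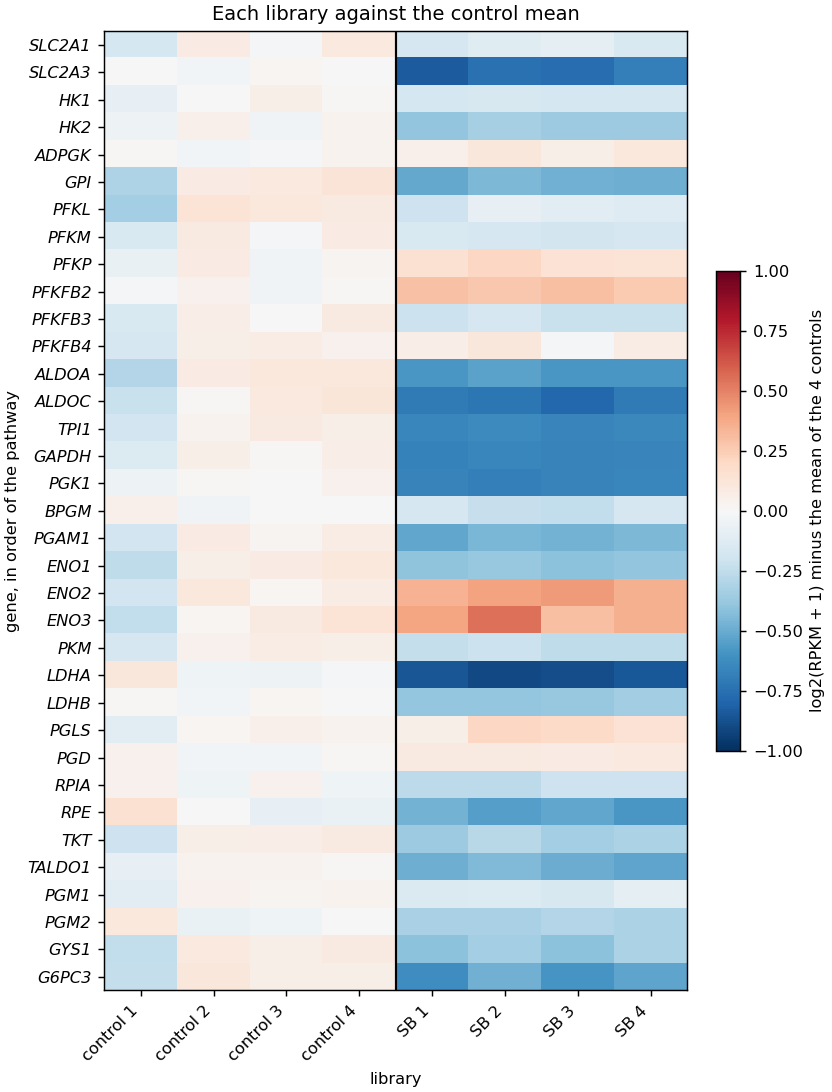
Log2(RPKM + 1) of each of the 35 genes (y axis, pathway order) in each library (x axis) minus the mean of the 4 controls, blue for lower and red for higher. The 4 SB-treated columns resemble each other, and control replicate 1 is bluer than the other controls for most genes, from 0.45 below to 0.21 above their mean on the log2 scale.

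Agreement between libraries was close apart from control replicate 1. The median coefficient of variation of the 35 genes was 7.59% over the 4 controls, 1.79% over the 3 controls other than replicate 1 and 2.18% over the SB-treated libraries. In control replicate 1 the genes lay a median of -0.18 (log2) from the mean of the other controls, where all genes lay at a median of 0.00. That library was the lowest control for 18 of the 25 genes called lower, and the falls of GPI, ALDOA, ENO1, PKM and TKT were larger without it, and LDHA, RPE and PGM2, among the 6 genes for which it was the highest control, fell slightly less.

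Of 42 further glycolysis and pentose phosphate genes, 27 had a row, and 9 of these were higher, 11 were lower and 7 did not pass, beside 33.0% higher and 32.6% lower among all genes. Without control replicate 1, 10 were higher and 12 were lower, where 37.6% and 37.9% of all genes were. The largest rises were those of PGAM2, the muscle phosphoglycerate mutase (log2 fold change 0.60), and of the SLC2A family genes SLC2A10 (0.45) and SLC2A13 (0.34). Among the falls were those of PRPS1 (-0.46), which turns ribose phosphate into the precursor of nucleotides, and of TKTL1 (-0.28), a transketolase-like gene at only 0.338 ± 0.0841 RPKM in controls. Their median log2 fold change was 0.00, against -0.32 for the 35.

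Among 30 genes of glycogen metabolism and gluconeogenesis, 20 had a row, with 7 higher, 8 lower and 5 not passing, beside 33.0% and 32.6% of all genes. Without control replicate 1, 7 were higher and 11 were lower. SLC37A4, which carries glucose phosphate into the endoplasmic reticulum for the phosphatase, fell most, from 37.2 ± 4.92 to 19.7 ± 0.282 RPKM (log2 fold change -0.87, adjusted p = 1.67e-05). PCK2, the mitochondrial carboxykinase, fell by 0.44 on the log2 scale, and PPP1R3B, a glycogen-targeting subunit, by 0.24. PPP1R3E, a further targeting subunit, EPM2A, the glycogen phosphatase laforin, and PHKA1, a phosphorylase kinase subunit, rose by 0.52, 0.44 and 0.33. PYGL, the liver isoenzyme that had a row, was lower (log2 fold change -0.16, adjusted p = 0.0017).

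All 16 regulator genes examined had a row, and 3 were higher, 7 were lower and 6 did not pass, beside 33.0% and 32.6% of all genes. Without control replicate 1, 4 were higher and 8 were lower. EGLN3, an oxygen-sensing prolyl hydroxylase that is itself a target of hypoxia-inducible factors, went from 5.15 ± 0.383 to 2.86 ± 0.163 RPKM (log2 fold change -0.67, adjusted p = 4.82e-06). MYC, a transcription factor that drives many glycolytic genes, went from 131 ± 4.80 to 93.1 ± 1.29 RPKM (-0.49, adjusted p = 3.56e-06). EPAS1, encoding the hypoxia-inducible factor HIF-2 alpha, went from 5.24 ± 0.279 to 3.98 ± 0.176 RPKM (-0.33, adjusted p = 0.00013). MLXIP and MLXIPL, the glucose-sensing factors MondoA and ChREBP, rose, with log2 fold changes of 0.60 and 0.24 (adjusted p = 0.000616 and 0.0457). PRKAA2, a catalytic subunit of AMP-activated kinase, rose by 0.39 (adjusted p = 0.00019). MLXIPL lay near the threshold. Only 2 regulators were called higher with a pseudocount of 0.1 or on leaving out any 1 SB-treated library. Whether any of these regulators took part in the changes of the enzyme genes was not tested.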

How the data were processed

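Total RNA of 4 control and 4 SB-treated cultures was made into strand-marking total RNA libraries and sequenced with short single reads. Per the study's methods and processing notes, the authors mapped reads with TopHat2 2.1.0 to hg38, counted them with featureCounts 1.5.0, removed genes with low counts and used edgeR 3.16.5. The deposited table held RPKM per gene and library, scaled by the authors with normalization factors. Its columns of the authors' own fold changes, mean levels, p-values and FDR were not used.

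Log2(RPKM + 1) was fitted with limma 3.58.1 (R 4.3.3), with Benjamini-Hochberg adjustment over all 14526 genes and a threshold of 0.05. The 11 isoenzyme ratios were compared by exact two-sided permutation, adjusted over the ratios. Whole reads were recovered from the RPKM for 100% of genes, to within 0.01 of a whole number, using the smallest length that gave them, so those of a few genes may be understated by a whole factor. They gave the depth and a voom fit. Per-library values are printed for the isoenzyme pairs, the 10 largest falls, the 4 largest rises, GAPDH and PKM, and of each further list at most 3 rises and 3 falls are named, and some of the listed genes are not reported here. Errors are SD over 4 libraries. The limma p-values set the difference between groups against the spread between libraries, moderated across genes, and those of the ratios come from relabelling the libraries. Alternatives were a pseudocount of 0.1, a mean RPKM of at least 1, other scalings, a replicate block, an intensity trend, voom, correction for GC content and length, and leaving out each library. The fits were tested on simulated data. The members and lists were chosen with earlier results of these data known, and the limits of 100 RPKM and of 0.5 in log2 fold change and the named opposite-strand partners were chosen after the values were seen. Gene overlaps and GC content came from GENCODE release 44 and promoters from RefSeq.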

Additional observations from a re-analysis of the deposited data

Results flagged for a closer look

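In a group of 4 libraries, a value was marked when the gap between the extreme library and its nearest neighbour took up an unusually large share of the group's whole range (Dixon's 95% limit), which chance does in about 1 of 20 groups. Of 128 groups examined for the genes and ratios named in the report, 21 were marked where chance would give 6.4, and in 15 of them control replicate 1 was the lowest library. Those 15 gap shares were 0.901 for GPI, 0.903 for PFKL, 0.874 for PFKFB4, 0.938 for ALDOA, 0.873 for ENO1, 0.885 for PKM, 0.833 for PGLS, 0.894 for TKT, 0.871 for PGM1, 0.886 for GYS1, 0.848 for G6PC3, 0.98 for SLC37A4, 0.9 for PCK2, 0.858 for MLXIPL and 0.986 for MLXIP. The marks share libraries and are not independent of each other. The report gives the values with and without that library where its absence changed a call.

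The HK2 to HK1 ratio was marked in controls through replicate 3, its lowest library, with a gap share of 0.836. Among SB-treated libraries, replicate 2 was the highest for HK1 (0.941), PFKFB3 (0.952) and ALDOA (0.961), replicate 3 was the lowest for ALDOC (0.859), and replicate 4 was the highest for LDHB (0.905). Leaving out each of these 3 treated libraries changed no call of these genes.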

How the results depend on the processing

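The median log2 fold change of the 35 genes stayed below 0 under every alternative, between -0.33 and -0.14, and the counts of genes called stayed between 17 and 26 lower and 5 and 8 higher (24 to 27 and 4 to 7 on leaving out 1 library). The median moved most with scaling, to -0.14 under equal RPKM totals and -0.22 without normalization factors. Under equal RPKM totals, SLC2A1 (0.0421), HK1 (0.0089), PFKL (0.0518), PFKM (0.0156) and PGM1 (0.049) changed sign, and PFKFB3, BPGM, PKM, RPIA and TKT lost their calls. All genes were then called 7441 higher and 2432 lower (75.4% of calls higher, against 50.3%), and 65.1% of calls were higher without normalization factors. In the same scaling 14 of the further pathway genes were higher and 3 lower, 2 glycogen and gluconeogenesis genes were lower, and 7 regulators were higher and 3 lower. Without normalization factors, 7 further pathway genes, 5 glycogen and gluconeogenesis genes and 3 regulators were lower, and HK1, PFKM, PFKFB3, PKM and PGM1 lost their calls. Regulators called lower ranged from 4 to 8 on leaving out 1 library, with 4 without SB-treated replicate 3 or 4. Correction for GC content and length turned the log2 difference of PFKM/PFKL to 0.0501 and of ALDOC/ALDOA to 0.0173, brought PFKP/PFKL (0.38) and PFKFB4/PFKFB2 (-0.15) to p = 0.0286 and took PGM2/PGM1 (-0.0862) to p = 0.0571, by exact permutation. With a replicate block added it gave the same differences, LDHA/LDHB among them at -0.57. Leaving out 1 library moved PFKM/PFKL between -0.0789 and 0.0252, HK2/HK1 between -0.23 and -0.19, PGM2/PGM1 between -0.24 and -0.13, PFKP/PFKL between 0.25 and 0.39 and PFKFB4/PFKFB2 between -0.31 and -0.20. HK2/HK1 and PGM2/PGM1 came to an exact permutation p = 0.0571 on leaving out any 1 SB-treated library, and PFKP/PFKL and PFKFB4/PFKFB2 came to p = 0.0286 without control replicate 1. Correction for GC content and length took the call of BPGM and reduced LDHB to -0.15 and RPIA to -0.0785. The cause of these shifts was not tested. Whether the replicate numbers pair the libraries was checked by correlating same-numbered deviations from the group means, which gave -0.16 to 0.38, so the numbers were not treated as pairs. The fit with the replicate block called 25 of the 35 genes lower and 5 higher, 4894 and 4885 of all genes, and lost the call of PGD alone (adjusted p = 0.0579). Precision is limited by 4 libraries per group and, for ENO3, PFKFB4 and ALDOC, by few reads (means of 150, 485 and 739 per control library).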
